A study of Caenorhabditis elegans with 2 samples.

Results

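The sites described here are 843 ranked peaks of the C. elegans nuclear receptor NHR-41 that had a score of at least 540 but under 830 and did not overlap the conservative peak list. They were chosen by that score out of the 48276 peaks that were ranked across both replicates. Another 2 peaks in the same score range overlapped a conservative peak by at least 1 bp and were left out. Below they are called the intermediate peaks, a name for their score range alone. They were set beside the 1069 peaks of the conservative list, which start at a score of 830, and beside the 46290 ranked peaks under 540 that lay outside that list.

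The animals were L4 larvae of strain RW12221, in which nhr-41 on chromosome IV carries a TY1::EGFP::3xFLAG insertion made with CRISPR. They were bleached, held as starved L1 larvae and collected at 48.5 hours, and whole larvae gave the chromatin. All of the material belonged to 1 group of 2 biological replicates, and no group of untagged larvae was analysed here. Chromatin sonicated to 200 to 800 bp was precipitated with an antibody to GFP according to the sample descriptions, while the antibody field of the labels names nhr-41. Whole animals mix all tissues, so a site used strongly in few cells and one used weakly in many cannot be told apart. The lists carry no read totals and the depth was unknown. Intervals below are exact 95% binomial intervals over peaks (Clopper-Pearson), which cover counting error only. No test between groups of peaks was made, because a measured score formed the groups.

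Nuclear receptors are transcription factors that bind DNA through paired zinc fingers, and many recognise the letters AGGTCA, alone or as repeats. NHR-41 is the worm relative of the vertebrate receptors TR2 and TR4, which bind such repeats as dimers. A score from the irreproducible discovery rate (IDR) grades how well the replicates rank a peak alike, and a low IDR goes with a high score.

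The sequences that follow show what the intermediate peaks hold around their summits, in windows of 75 bp to each side, on the + strand of ce11 (RefSeq sequence of WBcel235). The strongest intermediate peak is shown first because it held the letters CTTATCA at 2 places. These are an extended form of the TGATAA site of GATA factors, a family that includes the intestinal regulator ELT-2. Its window, chrII:8266673-8266823, lay in an intron of srdh-1. The windows at chrX:13257636-13257786, in the promoter of K08H2.10, and at chrIII:5814254-5814404, in the promoter of R12B2.7, had TGATAA in 2 of the strongest promoter peaks. The windows shown were taken from peaks on 5 of the 6 chromosomes, each with no annotated UTR in its window, and among the sequences "strongest" refers to these peaks. Capitals mark CTTATCA or TGATAA on either strand.
srdh-1 intron: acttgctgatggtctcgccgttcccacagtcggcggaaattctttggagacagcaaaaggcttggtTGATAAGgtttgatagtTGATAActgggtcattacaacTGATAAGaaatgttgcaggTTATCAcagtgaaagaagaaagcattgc
K08H2.10 promoter: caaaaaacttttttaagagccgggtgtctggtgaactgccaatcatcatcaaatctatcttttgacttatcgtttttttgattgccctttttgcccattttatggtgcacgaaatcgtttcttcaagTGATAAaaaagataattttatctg
R12B2.7 promoter: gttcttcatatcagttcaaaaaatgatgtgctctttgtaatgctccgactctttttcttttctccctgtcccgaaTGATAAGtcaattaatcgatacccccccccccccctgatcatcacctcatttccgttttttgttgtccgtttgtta

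The next windows show an E-box and a GAGA repeat, which were frequent among the intermediate peaks. The E-box CACGTG, a site of basic helix-loop-helix factors, lay in an intron of F09A5.3 at chrX:13145264-13145414. The repeat lay between genes at chrIII:433056-433206, where GAGAGAGA or its reverse complement matched at 23 overlapping positions. These 2 windows and the srdh-1 window hold the strongest peak with each motif and were chosen after the values were seen. Capitals mark the motif.
F09A5.3 intron: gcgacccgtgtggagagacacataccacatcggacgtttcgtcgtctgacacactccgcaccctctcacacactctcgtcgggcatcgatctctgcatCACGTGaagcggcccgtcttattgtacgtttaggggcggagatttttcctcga
affl-2 upstream region: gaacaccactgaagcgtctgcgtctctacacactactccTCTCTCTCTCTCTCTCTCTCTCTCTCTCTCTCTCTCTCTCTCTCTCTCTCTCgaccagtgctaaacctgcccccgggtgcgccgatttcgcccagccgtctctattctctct

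The nuclear receptor half-site is shown in the 3 strongest windows with AAGGTCA, an extended half-site, with that match in capitals. They lay in the promoter of dsh-2, a Dishevelled protein of Wnt signalling (chrII:5081328-5081478), in an intron of F22B7.9 (chrIII:8653070-8653220) and in a coding exon of wnk-1, a WNK kinase (chrIV:9211255-9211405). In the dsh-2 window a second GGTCA followed the capitals directly. In the F22B7.9 window the match lay inside a tRNA-Phe gene, F22B7.t3.
dsh-2 promoter: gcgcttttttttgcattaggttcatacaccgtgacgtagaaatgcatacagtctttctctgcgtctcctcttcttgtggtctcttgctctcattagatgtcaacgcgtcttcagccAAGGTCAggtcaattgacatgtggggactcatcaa
F22B7.9 intron: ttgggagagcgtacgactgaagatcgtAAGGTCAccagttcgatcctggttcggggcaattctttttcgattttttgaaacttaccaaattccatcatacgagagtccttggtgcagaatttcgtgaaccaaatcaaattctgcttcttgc
wnk-1 exon: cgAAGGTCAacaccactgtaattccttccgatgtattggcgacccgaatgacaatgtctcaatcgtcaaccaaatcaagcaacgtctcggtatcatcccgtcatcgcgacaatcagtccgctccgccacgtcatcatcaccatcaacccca

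The last windows show the B box of tRNA genes, an internal promoter element bound by the polymerase III factor TFIIIC and searched as GTTCGANNC, and a pair of windows without any of the 16 motifs. The B boxes lay in the tRNA-Leu gene D1009.t2 within an intron of dylt-2 (chrX:8939544-8939694) and in the tRNA-Lys gene K07C10.t1 within an intron of ptr-13 (chrII:11157760-11157910). Of the windows without a motif, one near H37A05.4 (chrV:13645860-13646010) had 47.7% GC, and one in an intron of lin-42 (chrII:1237957-1238107), the worm Period homologue, had 72.2%. Capitals mark the B box.
D1009.t2 gene: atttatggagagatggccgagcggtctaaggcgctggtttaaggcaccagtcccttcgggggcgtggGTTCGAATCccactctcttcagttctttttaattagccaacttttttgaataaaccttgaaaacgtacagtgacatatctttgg
K07C10.t1 gene: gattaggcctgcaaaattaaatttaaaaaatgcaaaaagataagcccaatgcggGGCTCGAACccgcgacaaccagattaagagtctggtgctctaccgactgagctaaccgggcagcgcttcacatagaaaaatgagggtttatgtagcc
H37A05.4 downstream region: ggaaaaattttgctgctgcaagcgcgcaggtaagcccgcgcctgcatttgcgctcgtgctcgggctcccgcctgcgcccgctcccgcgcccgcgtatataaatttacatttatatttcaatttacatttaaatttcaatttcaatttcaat
lin-42 intron: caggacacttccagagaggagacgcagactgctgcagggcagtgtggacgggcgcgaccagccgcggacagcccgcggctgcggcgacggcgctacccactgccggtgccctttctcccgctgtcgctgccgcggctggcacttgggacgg

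The intermediate peaks had a median signal of 56.5, in the unit of the authors' peak caller, with quartiles of 50.9 and 61.3 and a range of 2.06 to 118. The conservative peaks had a median of 82.8 and the ranked peaks under 540 had 24.6. The score chose these groups, so their signals are a description. The lowest score, 540, stood for an IDR of 5.00% and the highest for 1.01%, and the median score was 659. The intermediate peaks nearest the upper end were one with a signal of 69.2 in the promoter of K02B12.7 and one between genes on X with 60.5. The first of these summits lay inside the tRNA-Glu gene K02B12.t1, 920 bp upstream of the K02B12.7 start. Just above that end, the conservative peaks with the lowest scores had 830, 831 and 831, with signals of 59.6, 64.5 and 63.4. At the lower end, the 4 peaks with a score of 540 had signals of 61.4, 57.9, 54.9 and 42.2, and 3 just outside it had 63.3, 59.7 and 52.5. Signals on either side of both ends overlapped.

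For each ranked peak the list also gave 2 replicate signals, in columns without a replicate number. Their medians over the intermediate peaks were 25.9 in the first column (20.3 to 60.0) and 30.4 in the second (22.8 to 94.2). The second was higher in 592 of 843 peaks, 70.2% (67.0 to 73.3). It was at least 2-fold the first in 45 peaks (5.34%), and the reverse held in 1. Among the 1069 conservative peaks these counts were 74 (6.92%) and 2, and the second signal was higher in 822. The strongest intermediate peaks were mostly uneven: 9 of the 10 with the highest signal had the higher value in the second column. Median replicate signals in the conservative list were 36.7 and 46.9. The score formed the groups, so the unevenness among the strongest intermediate peaks is a description only. The part of the upper limit on the score in this unevenness was not tested. The share with a higher second signal was 72.6% in promoters, 65.9% between genes and 61.9% near tRNA genes.

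**Figure D1:**
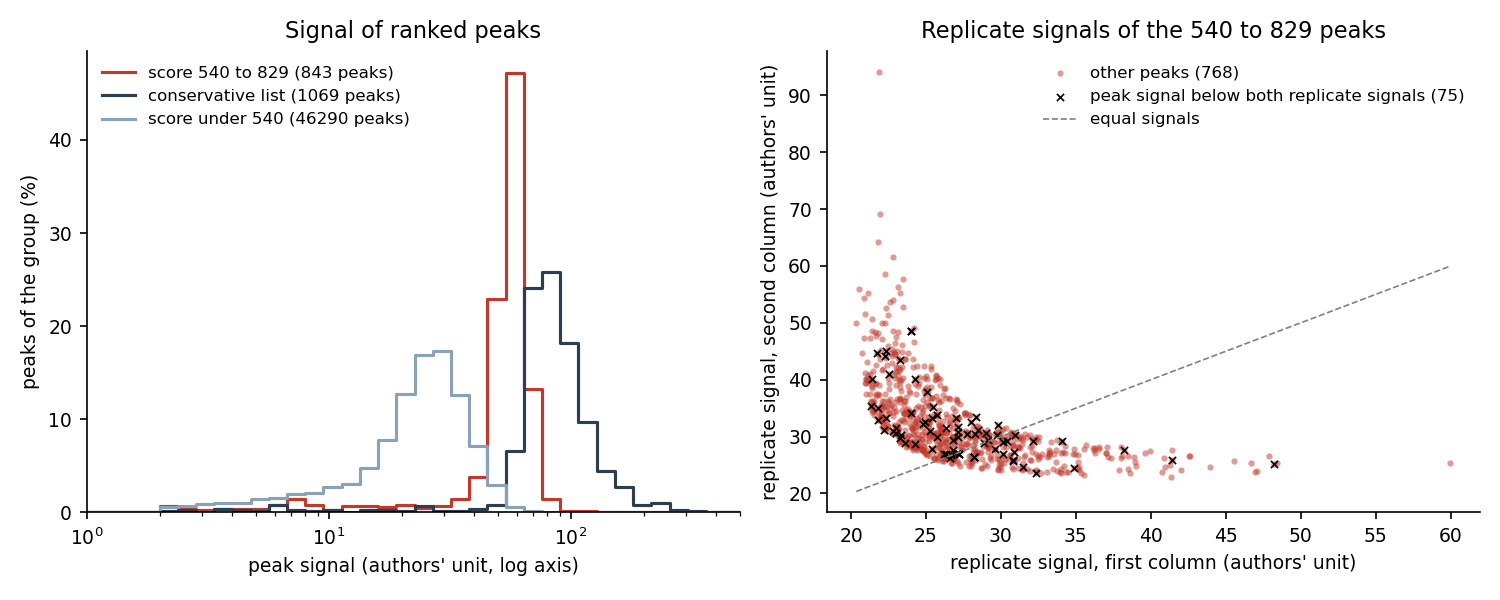
Left, the share of peaks (%) by peak signal on a log axis, for the intermediate peaks (red), the conservative list (dark) and ranked peaks under 540 (light blue), whose medians are 56.5, 82.8 and 24.6. Right, each point is 1 intermediate peak with its 2 replicate signals; 75 crosses mark peaks whose own signal lies below both replicate signals, and most points lie above the dashed line of equal signals.

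A small set of intermediate peaks had a signal lower than both of their replicate signals. There were 75 of these, 8.90% of 843, with a median signal of 7.70 (2.06 to 26.0) and median replicate signals of 26.8 and 30.3. In 74 of the 75, a replicate peak was shared with a stronger ranked peak. A pair of neighbouring peaks on X near the upper end of the score is an example: both list replicate signals of 29.8 and 32.0, but their own signals were 60.5 and 7.53. The other 768 peaks had a median of 57.1 (25.8 to 118). Over all 843, 145 shared both replicate peaks with another intermediate peak, and 769 distinct pairs remained. All 843 were 284 bp wide.

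Few of the intermediate peaks passed the threshold in a replicate's own list. Only 9 of 843, 1.07%, overlapped the thresholded list of replicate 1, and 55, 6.52%, overlapped that of replicate 2; of all ranked peaks 0.739% and 1.46% did so. Conservative peaks overlapped these lists at 30.3% and 52.4%. None of the 843 overlapped both lists, which allows a share of up to 0.356%. In the ranked list of replicate 1 alone, 814 were overlapped by a peak, with a median score of 170. In that of replicate 2 alone, 816 were, with a median score of 258. The other thresholded list made from both replicates overlapped 142 of them (16.8%), against 85.7% of the conservative peaks and 2.43% of all ranked peaks. In the single replicates' ranked lists the same score range held 309 peaks without replicate 1 and 137 without replicate 2, with median signals of 38.5 and 35.6. Most of these lay outside the 843. The overlapping peak scored in that range for only 108 of the 843 in replicate 2 and for 49 in replicate 1. In all, 685 of the 843 (81.3%) were in none of these 3 thresholded lists.

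Peaks that overlapped the conservative list had been left out both of the intermediate peaks and of those under 540. The median distance from an intermediate summit to the nearest conservative peak was 25927 bp, with quartiles of 7130 and 63214 bp, against a median of 36036 bp for the peaks under 540. Within 1000 bp lay 60 intermediate summits (7.12%), against 2.39% of those under 540. The nhr-41 gene itself, at chrIV:1386215-1399353, held no intermediate summit within 2000 bp. It held 2 conservative summits, the stronger with a signal of 94.0, among 23 ranked ones.

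In their position relative to genes, the intermediate peaks resembled the conservative list in promoters and stood between the groups in coding exons. A promoter reached 1000 bp before and 200 bp past the start of a transcript from a protein-coding gene. It held 358 of 843 intermediate summits, 42.5% (39.1 to 45.9), against 43.1% of conservative summits, 28.6% of those under 540 and 26.1% of genome bases; of all ranked peaks 29.1% lay there. Coding exons held 83, 9.85% (7.92 to 12.1), against 2.15% of conservative summits and 24.4% of those under 540. In the same score range of a single replicate's list coding exons held 31 of 309 summits without replicate 1 and 27 of 137, 19.7%, without replicate 2. Introns held 160 of 843, with an interval of 16.4% to 21.8%. This share lay below the 22.8% of conservative summits (20.3 to 25.5), 23.9% of those under 540 and 27.2% of genome bases. The intervals of intermediate and conservative summits in introns overlap. Intergenic sequence held 217 (25.7%), near the 25.1% of genome bases, against 30.9% of conservative summits and 20.3% of those under 540. UTRs outside promoters held few, with 0.830% in 5' UTRs and 2.14% in 3' UTRs. Within promoters the intermediate summits lay a median of 230 bp upstream of the nearest start. This was 274 bp for the conservative ones and 290 bp for those under 540. Of the promoter summits, 82.7% were upstream of the start, against 91.1% in the conservative list and 77.9% under 540. Most of the promoter window, 1000 bp before and 200 bp past the start, is itself upstream. The median signal differed little between these 4 classes, at 56.4 in promoters, 54.9 in coding exons, 56.3 in introns and 57.4 between genes.

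**Figure D2:**
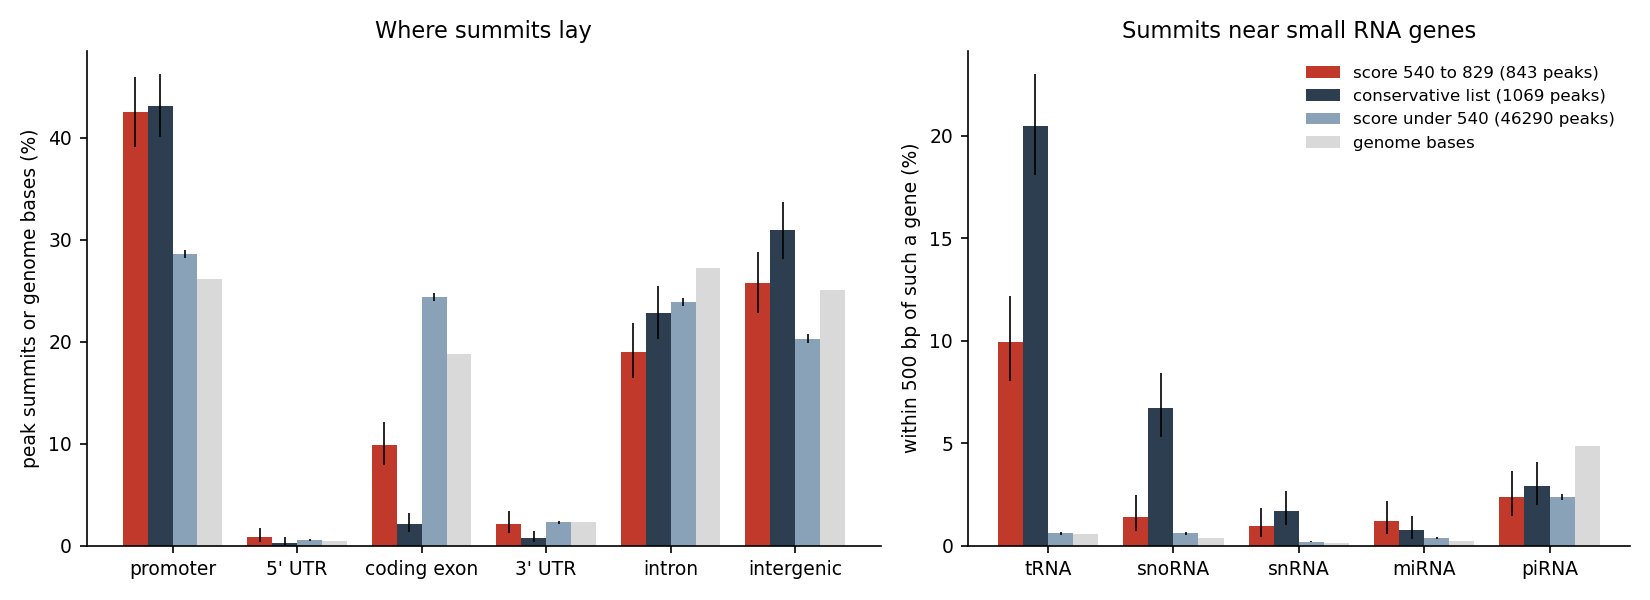
Left, the share of summits (%) in each class of gene region; right, the share (%) within 500 bp of a small RNA gene. Bars are, from left, the intermediate peaks, the conservative list, ranked peaks under 540 and genome bases, with 95% binomial intervals; the intermediate peaks match the conservative list in promoters (42.5% and 43.1%) but not at tRNA genes (9.96% and 20.5%) or snoRNA genes (1.42% and 6.74%).

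Along the chromosomes, 164 intermediate summits lay on X, 19.5% (16.8 to 22.3), against 23.9% of conservative summits and 17.7% of the genome's length. Away from tRNA genes the X share was 16.5%. Chromosome V held 17.6% against 14.4% of conservative summits, with 20.9% of the length. The central 50% of each chromosome, where most conserved and broadly expressed worm genes lie, held 55.2% of the intermediate summits (51.7 to 58.6), against 59.6% of the conservative ones and 49.2% of those under 540. By chromosome this share ran from 46.9% on IV to 62.8% on V. On X it was 60.4% (52.4 to 67.9), against 49.0% (42.7 to 55.3) of the conservative summits, the reverse of the order over all chromosomes, and these intervals overlap.

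Genes for tRNAs, which RNA polymerase III transcribes, were near a larger share of the intermediate peaks than of the genome and near a smaller share than of the conservative peaks, with intervals that did not overlap. A tRNA gene lay within 500 bp of 84 summits, 9.96% (8.03 to 12.2). The share was 20.5% (18.1 to 23.0) in the conservative list, 0.609% under 540, 0.571% of genome bases and 1.22% of all ranked peaks. Of these 84 summits, 49 lay inside the tRNA gene. The second strongest intermediate peak, at chrV:15551669-15551952, was one of them. Its summit lay in the tRNA-Asp gene F28F8.t3 within an intron of acr-18, an acetylcholine receptor subunit, with a signal of 95.9 and replicate signals of 21.9 and 69.1. The median signal near tRNA genes was 59.6, against 56.2 for the other intermediate peaks.

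Many tRNA genes had a summit of either kind. Of 612 tRNA genes, 101 (16.5%) had an intermediate summit within 500 bp, 257 had a conservative one and 12 had both, a count that leaving out overlapping peaks lowers. Either kind was present at 346 genes, 56.5% of all. On X, 54 of 276 tRNA genes had an intermediate summit (19.6%), and on the autosomes 47 of 336 did. RefSeq names by WormBase ID were found for 607 of the genes. Genes for 20 of the 21 kinds of tRNA had an intermediate summit, the exception being the single tRNA-Sec gene. The shares ran from 6.52% of tRNA-Lys genes (3 of 46) and 7.41% of tRNA-Gln genes (2 of 27) to 29.6% of tRNA-Asp genes (8 of 27) and 30.8% of tRNA-Cys genes (4 of 13). In the conservative list tRNA-Lys genes stood high, at 58.7%, and tRNA-Cys genes at 69.2%. Copies of a tRNA gene can be identical in sequence, so reads at some of them may be assigned uncertainly.

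Among other small RNA genes, the snoRNA genes differed most between the intermediate and the conservative peaks. These genes, which guide the modification of ribosomal RNA, lay near 12 intermediate summits, 1.42%, against 6.74% of conservative summits, 0.607% under 540 and 0.375% of genome bases. The list of a single replicate gave 1.94% without replicate 1 and 0 of 137 without replicate 2, which allows up to 2.19%. Genes annotated as snRNAs lay near 8, 0.949%, against 1.68% of conservative summits, with overlapping intervals. The snRNA share was 0.242% of all ranked peaks and 0.135% of genome bases. MicroRNA genes lay near 10, 1.19%, against 0.748% of conservative summits, again with overlapping intervals. For microRNA genes the share was 0.398% of all ranked peaks and 0.251% of genome bases. Genes for piRNAs lay near 20, 2.37%, close to the 2.40% of all ranked peaks and below the 4.87% of genome bases. No intermediate summit lay near an rRNA gene, which allows a share of up to 0.356%. Taken as 1 class, tRNA, snoRNA or snRNA genes were near 103 intermediate summits (12.2%), against 28.5% of conservative ones and 1.40% under 540.

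The tRNA, coding exon and promoter shares changed with the score. From the lowest to the highest of 7 score bands (starting at 26, 100, 300, 540, 700 and 830, and 1000 alone), tRNA genes were near 0.367%, 1.05%, 3.10%, 8.69%, 12.3%, 16.0% and 22.2% of summits. Coding exons held 24.8%, 24.1%, 17.7%, 10.4%, 8.94%, 4.86% and 1.15%. Promoters held 27.5%, 30.6%, 39.3%, 41.2%, 44.7%, 45.1% and 42.4%. The tRNA share was higher and the coding exon share lower in each band than in the one before. The promoter share moved little from 300 upward. For snoRNA genes the shares were 0.526%, 0.681%, 1.83%, 1.66%, 0.993%, 4.51% and 7.55%. Those of the intermediate bands rest on 9 of 541 summits (0.763 to 3.13) and 3 of 302 (0.205 to 2.88). Both intervals overlap that of the band from 830 (2.43 to 7.60). The X chromosome held 19.4% and 19.5% in the intermediate bands, 18.1% in the band above them and 26.0% at a score of 1000.

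**Figure D3:**
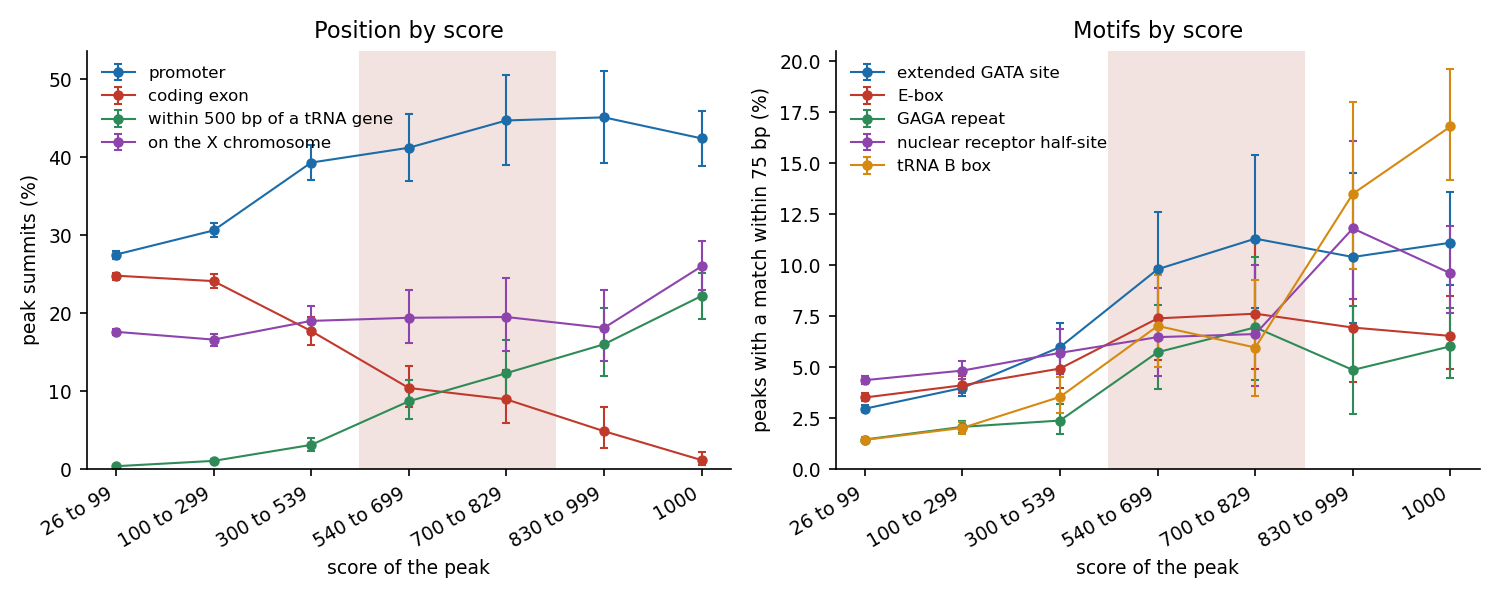
Shares of peaks (%) by score band, low to high, with 95% binomial intervals and the intermediate bands shaded. Left, promoters, coding exons, tRNA genes within 500 bp and the X chromosome; right, motifs within 75 bp of the summit, where the extended GATA site and the E-box level off at the intermediate bands and the B box rises on to 16.8%.

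Motifs were searched as exact letters on both strands within 75 bp of each summit, and compared with equal windows centred 500 bp to each side. Every CTTATCA match also holds TGATAA on the other strand, and every AAGGTCA match holds AGGTCA. The extended GATA site CTTATCA lay in 87 of 843 intermediate windows, 10.3% (8.35 to 12.6), against 3.02% of their flanking windows (2.26 to 3.96). It lay in 10.9% of conservative windows, 3.28% of those under 540 and 2.60% of all adjoining windows of the genome. For TGATAA the share was 21.7%, against 13.0% of the flanks, 22.7% of conservative windows and 13.8% of genome windows. By class of region, CTTATCA lay in 11.5% of intermediate windows in promoters, 10.6% in introns and 12.4% between genes, with 1 match in the 83 windows of coding exons. The shares of intermediate and conservative windows were nearly equal, and both were over 3 times that of the peaks under 540.

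The extended GATA site was uneven between the replicates. It lay in 70 of the 592 intermediate windows whose second replicate signal was higher, 11.8% (9.33 to 14.7), and in 17 of the 251 whose first was higher, 6.77% (3.99 to 10.6). These intervals overlap, and TGATAA was in 22.3% and 20.3% of the same windows. Among conservative windows the same split gave 13.4% (11.1 to 15.9) and 2.83% (1.15 to 5.75) for CTTATCA, and 25.5% and 13.4% for TGATAA. In the ranked lists of single replicates, in the same score range, CTTATCA was in 43 of 309 windows without replicate 1 (13.9%) and in 3 of 137 windows without replicate 2 (2.19%, 0.454 to 6.27), the last close to the 2.60% of genome windows. TGATAA was in 30.1% and 15.3% of these windows. In the thresholded lists of replicates 1 and 2 the shares of CTTATCA were 10.1% and 13.0%, so at high scores both replicates held it.

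A similar picture was found for the E-box, the GC box and the GAGA repeat, but not for every motif searched. The E-box CACGTG was in 63 windows, 7.47% (5.79 to 9.46), against 2.55% of the flanks, 6.64% of conservative windows and 2.52% of genome windows. The GC box GGGCGG, a site of Sp1-like zinc finger factors, was in 8.42% (6.64 to 10.5), against 3.38% of the flanks and 8.79% of conservative windows; 2.40% of genome windows held it. The repeat GAGAGAGA was in 6.17% (4.64 to 8.01), against 1.19% of the flanks, 5.71% of conservative windows and 0.992% of genome windows. It was most frequent between genes, in 11.1% of intermediate windows there, and lay in 5.03% of those in promoters. Without replicate 1 the E-box was in 4.85% of windows, the GC box in 4.85% and the repeat in 5.83%; without replicate 2 these were 6.57%, 6.57% and 5.84%. At least 1 of these 4 motifs, the extended GATA site included, was present in 27.9% of intermediate windows and 28.9% of conservative ones. The bands of the score levelled off accordingly: CTTATCA was in 5.98% of windows in the band that starts at 300, then 9.80%, 11.3%, 10.4% and 11.1% in the bands above.

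The nuclear receptor half-site stood out less from its flanks than these motifs did. AGGTCA lay in 55 intermediate windows, 6.52% (4.95 to 8.41), against 4.33% of their flanks (3.41 to 5.41), and these intervals overlap. It lay in 10.2% of conservative windows, 4.50% of those under 540 and 3.63% of genome windows. By score band its share was 6.47% in the band that starts at 540, 6.62% in that from 700 and 11.8% in that from 830. The extended AAGGTCA was in 2.61% of intermediate windows, 1.48% of the flanks and 4.12% of conservative windows. Direct repeats of AGGTCA with 2 bases between the copies and up to 2 mismatches were in 1.78%, against 0.771% of the flanks and 2.15% of conservative windows, and the intervals of windows (0.999 to 2.92) and flanks (0.411 to 1.31) overlap. This was the highest share among spacers of 0 to 5 bases; the others were in 0.830% to 1.30% of intermediate windows, against 0.415% to 1.07% of the flanks. Of the 55 windows with AGGTCA, 30 were in promoters and 6 had the match inside a tRNA gene, and 14 also held TGATAA. The strongest promoters with AGGTCA were those of egl-13, a SOX family transcription factor, dsh-2 and pmk-3, a p38 kinase, with signals of 77.5, 69.4 and 65.8.

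The B box followed the tRNA genes. It was in 56 intermediate windows, 6.64%, against 1.36% of the flanks, 15.9% of conservative windows and 1.15% of genome windows. Near tRNA genes it was in 47 of 84 windows (56.0%), against 61.6% of such conservative windows, and away from them in 9 of 759 (1.19%). The A box, searched as TGGCNNAGT, is the other internal tRNA promoter element. It was in 2.14%, against 1.36% of the flanks, 5.99% of conservative windows and 1.40% of genome windows. Among the intermediate windows it was in 3 of 84 near tRNA genes (3.57%, 0.743 to 10.1). Away from them it was in 15 of 759 (1.98%, 1.11 to 3.24), and these intervals overlap. Runs of T (TTTTTTTT) were in 8.90% of intermediate windows and in 15.9% of the flanks. Base composition moved with these shares: the windows had a mean GC content of 44.5% ± 8.07 (SD over 843 windows), the conservative windows 46.4% ± 7.65 and the genome 35.4%, and the part of GC content in the motif shares was not tested. None of the 16 motifs was found in 349 intermediate windows, 41.4%.

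**Figure D4:**
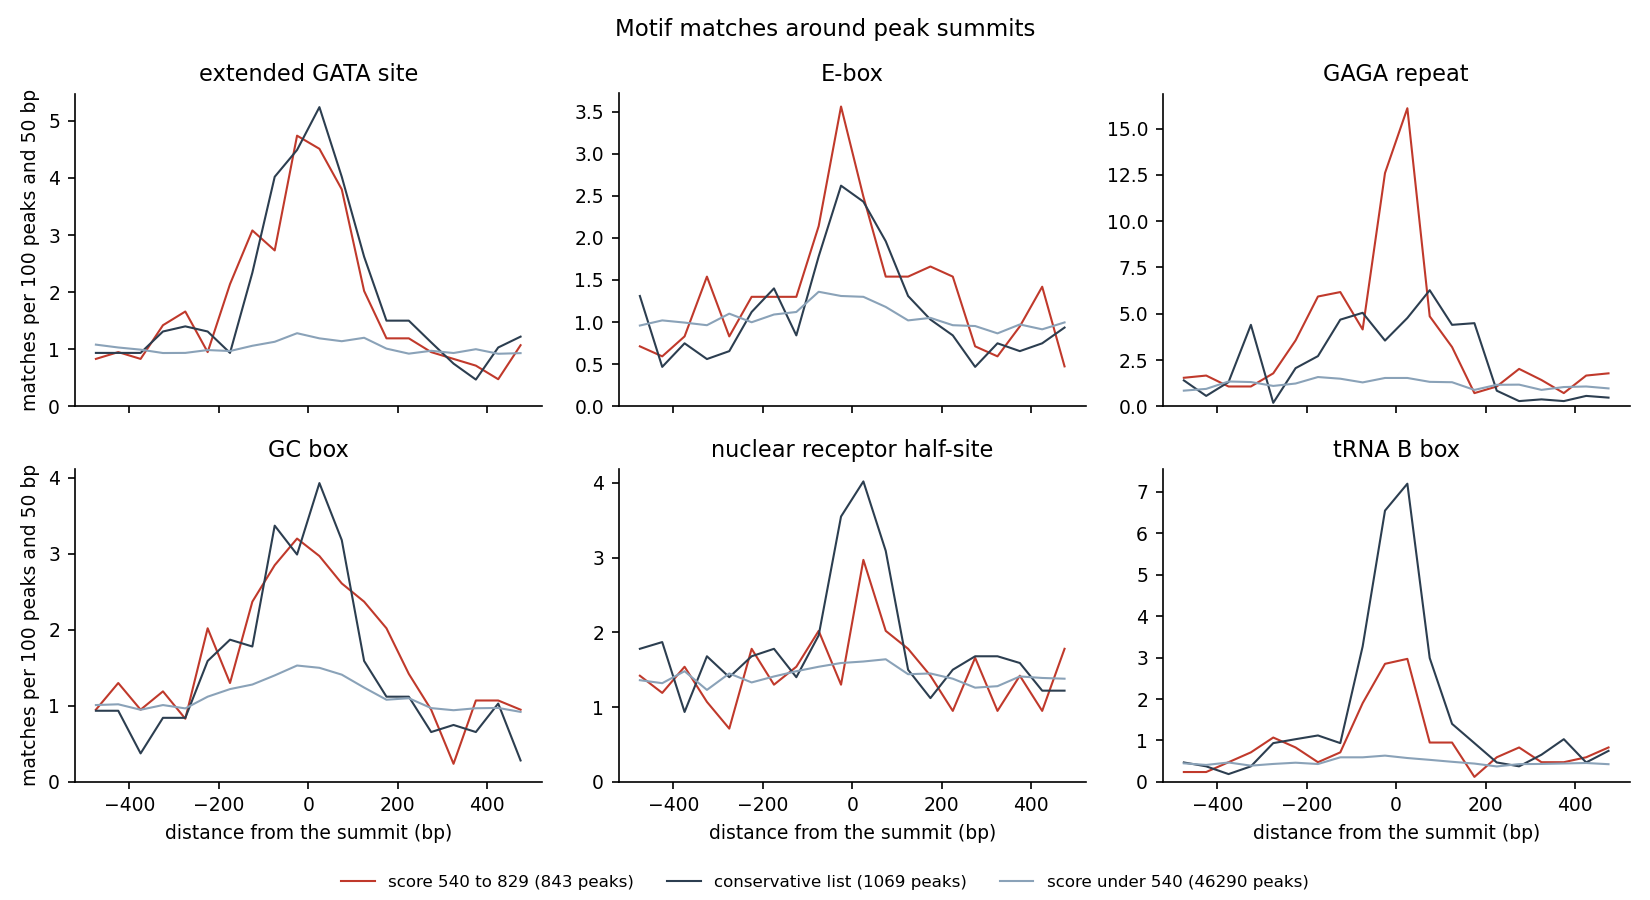
Matches per 100 peaks in 50 bp bins by distance from the summit (bp), for the intermediate peaks (red), the conservative list (dark) and ranked peaks under 540 (light blue). The extended GATA site, E-box and GC box peak at the summit alike in the first 2 groups, while the half-site and B box peak higher in the conservative list; overlapping matches within 1 long repeat all count in the GAGA panel.

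At the level of genes, 374 of 19973 protein-coding genes (1.87%) had an intermediate summit in a promoter, and 534 (2.67%) had a conservative one. With a single replicate's list the number was 155 without replicate 1 and 46 without replicate 2. Both were present at 12 genes, 3.21% of the 374 and 2.25% of the 534, near the 2.67% and 1.87% of all genes. Of the 358 summits in promoters, 63 were assigned to more than 1 gene. The strongest was upstream of C05G5.2, at chrX:14747010-14747293, with a signal of 83.0 and replicate signals of 23.1 and 56.3. The next was upstream of nduf-9, a subunit of respiratory complex I, at chrIII:3249106-3249389, with 79.8 and replicate signals of 23.5 and 52.7. In both peaks the second replicate signal was at least 2-fold the first. The nduf-9 summit lay 673 bp upstream of its start, while the start of Y53G8AL.4 was 244 bp away.

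The 20 strongest intermediate promoter peaks lay at genes of many kinds. The egl-13 peak lay 25 bp upstream of a start, with a signal of 77.5 and replicate signals of 21.8 and 64.2. The peak of scpl-3, a phosphatase related to those acting on RNA polymerase II, had 74.9 with 60.0 and 25.3, so here the first column was higher. The peak of gsp-2, a catalytic subunit of protein phosphatase 1, was more even, with 73.7 and replicate signals of 38.0 and 28.2. Others lay at inx-18, a gap junction innexin (70.3), dsh-2 (69.4), drd-1 (77.5) and grl-26, a hedgehog-related gene beside the tRNA-Asp gene K02D7.t1 (73.4).

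The others of the 20 were as varied. The pdi-6 gene, a protein disulfide isomerase, had a peak of 74.2, and calu-1, a calumenin of the secretory path, had 71.0. A peak of 69.7 was shared by R11A5.6 and pck-2, a phosphoenolpyruvate carboxykinase, and lay 729 bp from a conservative peak. The gene gbh-2, a hydroxylase of carnitine synthesis, had 71.4, and plrg-1, a splicing factor, had 70.4. The 20 also held the promoters of K08H2.10 (78.1), W03D8.2 (74.2), R12B2.7 (72.8), Y43F8B.2 (72.0), K02B12.7 (69.2) and R08C7.11 (69.1). The K02B12.7 summit lay inside the tRNA-Glu gene K02B12.t1.

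Beyond promoters, the 10 strongest intermediate peaks included the one in srdh-1, at chrII:8266606-8266889, with a signal of 118. Its replicate signals were 21.8 and 94.2, the widest gap among these 10. A peak in an intron of fbxl-5 had 83.5 with replicate signals of 20.5 and 56.0. One in the 3' UTR of Y43F8B.3 had 82.9 and lay 435 bp from a conservative peak. The other 4 lay between genes, with signals of 83.2, 82.0, 79.9 and 79.2, and the last of these had its higher replicate signal, 48.2, in the first column.

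Among gene lists, the ribosomal protein genes had a high share. Of 81 ribosomal protein genes, 9 (11.1%) had an intermediate summit in a promoter, against 1.87% of all protein-coding genes. Another 12 had a conservative summit, none was in both sets, and 86.4% had a ranked summit of any score, against 48.8% of all genes. The strongest were rps-15 with 62.8 (replicate signals 22.6 and 44.6), rps-20 with 62.3 (25.7 and 40.8) and rpl-41.2 with 59.5 (32.5 and 26.1). The rps-20 summit was nearer the start of ekl-4. Of 44 translation factor genes only eef-1G, an elongation factor subunit, had one (68.2), which is 2.27% of the list, against 5 with a conservative summit.

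Lists of mitochondrial and protein quality genes held 1 to 3 genes each. Of 42 respiratory chain genes 3 (7.14%) had an intermediate summit, against 1.87% of all genes: nduf-9, cyc-2.1, a cytochrome c (60.0), and cox-6B, a subunit of cytochrome oxidase (57.5). Of 10 ATP synthase genes there was 1, atp-1, the alpha subunit (68.4). Of 65 chaperone genes there were 3 (4.62%), hsp-6, the mitochondrial Hsp70 (62.7), cct-1, a chaperonin subunit (60.1), and dnj-14 (55.8), against 8 with a conservative summit. The summits of cox-6B, cct-1 and dnj-14 were nearer the starts of Y71H2AM.20, mig-5 and glit-1. The proteasome list had 1 of 36 (2.78%), pbs-5 (52.6). The lysosome and autophagy list had 3 of 57 (5.26%), cpr-3 (67.0), lgg-1, the worm LC3 homologue (61.4), and vha-19 (53.4), against 8 in the conservative list; lgg-1 was in both.

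Among 56 genes of fatty acid metabolism, 5 (8.93%) had an intermediate summit, against 2 with a conservative one and 1.87% of all genes. The 5 were elo-1, an elongase of polyunsaturated fatty acids (65.0, replicate signals 30.8 and 28.5), the acyl-CoA synthetase genes acs-13 (53.3) and acs-19 (53.2), and the desaturase genes fat-3 (52.5) and fat-1 (16.3). The fat-1 peak was one whose signal lay below both of its replicate signals, 25.5 and 35.2; fat-3 and fat-1 were named after their values were seen. The replicate signals of elo-1 were close, while those of many stronger peaks were not.

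Among regulators, 4 of 18 heterochronic genes, which time larval development, had an intermediate summit (22.2%), against 1.87% of all genes. In this list 5 had a conservative summit and 1 gene had both. A ranked summit of any score was present at 94.4% of the list, against 48.8% of all genes. The 4 were lin-14, a nuclear regulator of early larval fates (65.0, replicate signals 30.8 and 30.1), alg-1, a microRNA Argonaute (57.7), lin-28, an RNA-binding protein (57.4), and mab-10 (48.0), which was named after its value was seen. Of 274 nuclear receptor genes 7 had an intermediate summit (2.55%), against 1.87% of all genes, and the same number had a conservative one. Among them were nhr-141 (68.0), nhr-49, a regulator of fatty acid metabolism (62.1, with 28.7 and 30.4), and nhr-85 (58.2). The moulting list had 1 of 20, myrf-2 (62.1), and the GATA factor list 0 of 11, against 2 with a conservative summit.

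The remaining lists lay on either side of the share over all genes. Chemoreceptor genes had an intermediate summit in 5 of 1309 (0.382%), under the 1.87% of all genes; the strongest was srh-70 (67.5), whose summit lay 4 bp from the snoRNA gene T21B4.20. F-box and MATH-BTB genes had 3 of 412 (0.728%), and collagen genes 1 of 174 (0.575%; col-38, 55.5). The col-38 peak also lay in the promoter of the ribosomal protein gene rpl-5 and was counted in both lists. Histone genes had 2 of 72 (2.78%) and intestinal genes 1 of 31 (3.23%; asp-4, 56.0). Insulin-like peptides (39 genes), body wall muscle (24), pan-neuronal (19) and germline genes (74) had 0. These lists are small, and a count of 0 in them does not show that the genes are without such sites.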

How the data were processed

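The authors deposited 8 peak lists on build ce11: ranked and thresholded lists for each of the 2 replicates, and lists made from both. Per the labels, chromatin was sonicated and precipitated with an antibody that the descriptions give as anti-GFP and the antibody field as nhr-41. Each peak carries an IDR score capped at 1000, the −log10 of its IDR and a signal, all deposited by the authors. The aligner, the peak caller and what the signal is relative to: not given in the sources used here. Replicate signals came from the ranked list of both replicates, whose columns carry no replicate number; 6 further columns of per-sample values in other lists were not used.

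Peaks were selected by score, annotated at their summits with Ensembl release 115 and searched for 16 motifs in the RefSeq sequence of WBcel235 (0 peaks ran past a chromosome end) with Python 3.11.15, pandas and scipy. No test was made: with 1 group, shares carry exact 95% binomial intervals, and a count of 0 is given with the limit of 3 counts. The members, the 21 gene lists and the motifs were chosen with earlier results of these data known. Genes named are nhr-41, those at the 20 strongest promoter peaks, the 10 strongest peaks, the score ends, and up to 3 per list by signal; others, at the sequences shown, at AGGTCA promoters and beyond 3 per list, were chosen after their values were seen. The alternatives were other score ranges, overlap rules, lists, distances and windows, and each replicate alone. Annotation, overlap and motif steps were tested on simulated data.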

Additional observations from a re-analysis of the deposited data

Results flagged for a closer look

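In the ranked list of both replicates, 39 peaks with a score of 830 or more were absent from the conservative list, although their scores pass its lowest value. They were singled out because they carry a signal in data that the comparisons did not use. Their highest signal was 1660, at chrX:15811049-15811139, with replicate signals of 993 and 826, and the next was 380 at chrX:293305-293588. Signals above 100 were listed for 15 of the 39, and their median was 92.1. By position, 35 lay between protein-coding genes, 2 in coding exons, 1 in an intron and 1 in a promoter, that of pot-3, a telomere-binding protein gene; 2 lay within 500 bp of an rRNA gene. None of the 843 intermediate summits lay within 1000 bp of these peaks, which allows a share of up to 0.356%.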

How the results depend on the processing

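Under 16 alternatives, 191 values were recomputed; 155 moved by less than the counting interval, the spread between replicates or 1.5 times, and 36 moved further. With scores of 700 or more there were 302 peaks, with a median signal of 60.0, 12.3% near tRNA genes, 146 genes and TGATAA in 24.8%. The other ranked list of both replicates gave 6.83% near tRNA genes. Without peaks near tRNA genes 16.5% lay on X. Promoters of 500 and 2000 bp held 31.0% and 57.7% of summits. Within 1000 bp, snoRNA genes were near 3.08%. A window of 50 bp gave AGGTCA in 4.27%, TGATAA in 16.5%, CTTATCA in 7.47%, CACGTG in 5.10% and GGGCGG in 5.58%, and one of 100 bp gave TGATAA in 26.7% and CTTATCA in 12.7%. With a single replicate's ranked list (without replicate 1 or without replicate 2) the counts were 309 and 137 and the median signals 38.5 and 35.6; promoters held 44.3% and 35.0%, tRNA genes were near 7.12% and 10.9%, snoRNA genes near 1.94% and 0, X held 18.1% and 19.7%, genes numbered 155 and 46, AGGTCA was in 7.44% and 5.11%, TGATAA in 30.1% and 15.3%, CTTATCA in 13.9% and 2.19%, CACGTG in 4.85% and 6.57%, and GGGCGG in 4.85% and 6.57%. The cause was not tested. Leaving out the 75 peaks with a signal below both replicate signals, an alternative chosen after seeing the data, left 768 peaks with a median signal of 57.1 and 367 genes, CACGTG in 7.68% and GGGCGG in 8.59%, and moved none of the values recomputed beyond those limits. No paired analysis was possible because there was only 1 group. Depth was unknown and limits every count. Peaks of 1 list share the same chromatin, so the intervals do not cover variation between animals.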
